A study of Mus musculus with 4 samples.

Results

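The major histocompatibility complex (MHC) region of the mouse was taken as every probe without control status whose stated position lay inside chr17:33800000-36900000 of mm9. The rule used positions only and no measured value. It found 3149 probes of 520554 on a promoter and CpG-island array, each 45 to 60 bases long, and all 3149 sequences stood at their stated place in the mm9 reference. The probes carried 154 names in the array's annotation. Of these, 18 were class I genes, 9 class II genes, 5 antigen-processing genes, 56 class III genes and 52 other genes of the region. A further 14 were sequence identifiers, and 2 probes had a position only. Classes went by gene name and its synonyms, not by position. Vars2, which lies beyond H2-Q10, thus counts as class III, and D17H6S53E, between Bat4 and Apom, as another gene.

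The MHC is a dense block of immune genes. Class I molecules present peptides from inside the cell on the surface of nearly all nucleated cells, while class II molecules present peptides taken up from outside and are found mainly on professional antigen-presenting cells. Between them lie the class III genes, a mixed group that includes complement factors, cytokines, heat shock proteins and the Ly6 family. Methylation of MHC genes and of their regulators has been described in cancers with lowered antigen presentation. Decitabine, a cytidine analogue that traps DNA methyltransferases, is used to lower methylation in myeloid leukaemia.

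Methylated DNA was enriched from leukaemic mouse cells with an antibody (methylated DNA immunoprecipitation, MeDIP), labelled with Cy3 and hybridised together with Cy5-labelled input DNA, on 4 arrays in all. The groups were WT untreated, KO untreated, WT cells given 20 nM decitabine every 24 h for 3 days, and KO cells given the same, all harvested at 72 h, with 1 array each. All cells grew in medium with interleukin and stem cell factor supplements, and the labels do not give the age, sex or strain of the animals they came from. The sample names call the knockout Mll5, while the genotype field calls it HOXA9. No probe of the array carries the name Mll5, and its deletion was not checked here. On 28 kept Hoxa9 probes the log2 input signal was 0.50 above its array's median in KO untreated cells and 0.62 in WT untreated cells. Only probes with input signal well above background on all 4 arrays were kept. Probes in a deleted stretch could thus be left out, and these values cannot show whether Hoxa9 was deleted.

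Each value below is a log2 ratio of MeDIP over input, set to 0 at the median kept probe of its array; it ranks enrichment within an array and is not a fraction of methylated DNA. A probe was kept where its input signal was well above background on all 4 arrays and no spot was an outlier for non-uniformity, which left 2245 of 3149 region probes (71.3%) and 63.1% of the whole array. A gene's level is the mean over its kept probes, with the SD over those probes, and 138 of the 154 names had the 3 or more kept probes needed. H2-D1, H2-T23, H2-T9, C4a, C4b and 1 other gene, LOC547349, did not, nor did 10 sequence identifiers. With 1 array a group, no comparison of 2 arrays has a replicate check, and the SD over probes does not stand in for one. Each array came from its own slide, so an effect of the slide and one of the group cannot be told apart.

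Probes that carried measured MeDIP signal are shown first, since they set what can be said of each gene; a probe is called measured on an array where its MeDIP signal was well above background there. These 7 probes had among the highest mean log2 ratios of their gene class, of probes outside UTRs that were well above background in MeDIP on all 4 arrays. They are printed on the plus strand, 5′ to 3′, with CpG in capitals.
H2-Ea: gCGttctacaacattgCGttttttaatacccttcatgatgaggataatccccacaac
H2-Aa: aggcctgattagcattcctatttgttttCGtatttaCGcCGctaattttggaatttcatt
H2-M11: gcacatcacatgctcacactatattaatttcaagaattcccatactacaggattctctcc
H2-T24: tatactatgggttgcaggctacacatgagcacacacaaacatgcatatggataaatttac
Tap1: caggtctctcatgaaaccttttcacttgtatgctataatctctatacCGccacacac
Lsm2: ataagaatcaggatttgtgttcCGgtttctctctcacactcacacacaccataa
Mrps18b: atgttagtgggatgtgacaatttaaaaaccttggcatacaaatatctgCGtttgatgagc
The H2-Ea probe, at chr17:34479896-34479952 and intergenic in the annotation, read 2.89 and 2.45 on the WT and KO untreated arrays, and 2.75 and 3.54 on the WT and KO decitabine arrays. The H2-Aa probe, at chr17:34428445-34428504 and 3702 bases upstream of the H2-Aa start, read 2.24, 1.22, 2.62 and 2.43 in the same order. Both lay far above the array median on every array, and neither was lower after decitabine than before it in KO cells. The H2-M11 probe at chr17:36681837-36681896 held no CpG itself and 1 in the surrounding 500 bases, and read 2.17, 1.12, 1.42 and 0.84. The H2-T24 probe, intronic at chr17:36156949-36157008, read 1.19, 0.88, 1.28 and 0.70. These class I probes were the lowest on KO decitabine among the 4 arrays. In the Tap1 probe, exonic at chr17:34326503-34326559 by the annotation and 305 bases before the nearest protein-coding start, the values were 1.07, 2.14, 1.66 and 2.28. The Lsm2 probe, 382 bases upstream of the start of that class III gene at chr17:35118399-35118452, read 0.85, 0.75, 1.59 and 1.18. The probe among the other genes of the region was intronic in Mrps18b, a mitochondrial ribosomal protein, at chr17:36051954-36052013, with 3.33, 2.58, 3.17 and 2.60.

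A second set of probes was chosen for a high mean over both decitabine arrays among probes measured on both. The genes were among those called higher with decitabine in WT or KO cells, so the measured signal there follows from the choice. For Ly6g6c, Apom, Psors1c2 and Ager, the probes below were above background in MeDIP on both decitabine arrays and on neither untreated array.
Ly6g6c: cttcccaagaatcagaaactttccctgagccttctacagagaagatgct
Apom: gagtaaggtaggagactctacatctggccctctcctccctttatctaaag
Psors1c2: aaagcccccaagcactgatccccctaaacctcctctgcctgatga
Ager: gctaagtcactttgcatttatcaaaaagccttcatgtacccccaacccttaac
The Ly6g6c probe, intronic at chr17:35205048-35205096, read 2.54 with decitabine in WT cells and 2.59 in KO cells. The Apom probe, intronic at chr17:35266145-35266194, read 1.20 and 0.68. The Psors1c2 probe, exonic at chr17:35671037-35671081, read -0.14 and 0.22, and the Ager probe, exonic at chr17:34735531-34735583, read -0.12 and 0.31. None of the 4 probes holds a CpG, and the 500 bases around them hold 13, 13, 8 and 10. MeDIP pulls down sheared fragments longer than a probe, so a probe without a CpG can report the CpG beside it.

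Few region probes had measured MeDIP signal without treatment, and more had it with decitabine. Well above background in MeDIP were 94 of 2245 kept region probes on the WT untreated array (4.19%) and 114 on the KO untreated array (5.08%), against 4.08% and 4.09% of the whole array. With decitabine the numbers were 402 in WT cells (17.9%) and 407 in KO cells (18.1%), against 14.2% and 16.1% of the whole array. Of the region's kept probes, 72 were well above background on all 4 arrays (3.21%), 195 on both decitabine arrays only (8.69%), 0 on both untreated arrays only, and 1755 on none (78.2%). Over the whole array 6 of 328399 kept probes were well above background on both untreated arrays only. The detection limit moved in the same direction: the lowest log2 MeDIP signal counted as well above background was 10.45 and 10.29 on the WT and KO untreated arrays, and 10.02 and 9.73 on the WT and KO decitabine arrays. Surrogate values, which the scanner software writes where a signal is too near background, filled 63.0% and 58.4% of the region's kept probes without treatment and 35.5% and 36.6% with it. The part of these limits in the rise was not tested.

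**Figure D1:**
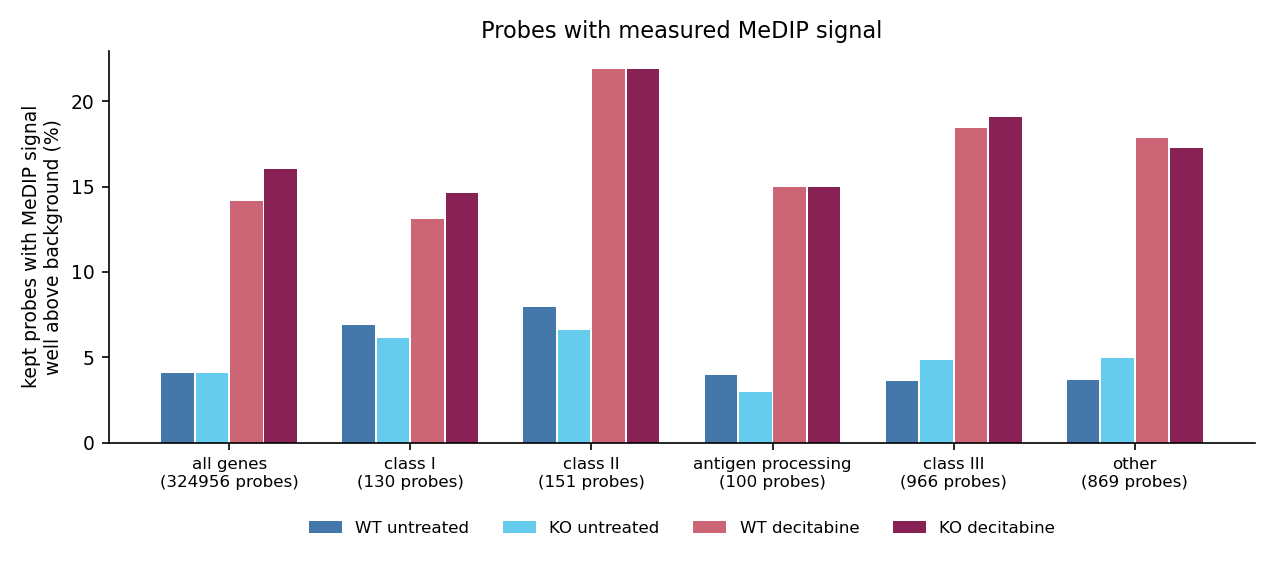
Share of kept probes with MeDIP signal well above background (percent, axis from 0) in genes of each class with at least 3 kept probes, and in all such genes of the array, 1 bar per array. Each class shown had more such probes on both decitabine arrays; class II reached 21.9% on each, and class I stayed lowest at 13.1% and 14.6%.

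The rise differed in size between classes. Class II genes went from 12 of 151 probes (7.95%) to 33 (21.9%) in WT cells, and from 10 (6.62%) to 33 in KO cells. Class III genes went from 35 of 966 (3.62%) to 178 (18.4%) in WT cells, and from 47 (4.87%) to 184 (19.0%) in KO cells. Class I genes went from 9 of 130 (6.92%) to 17 (13.1%), and from 8 (6.15%) to 19 (14.6%). The class I share was thus above that of all genes without treatment and below it with decitabine in both genotypes, a description of 1 array a group.

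The levels of the region were below the array's median without treatment and nearer to it with decitabine. The median kept region probe stood at -0.33 and -0.19 on the WT and KO untreated arrays and at -0.11 and -0.06 on the decitabine arrays. CpG content went with the level: on the WT untreated array, region probes with 0 CpG had a median of -0.20, those with 1 to 2 CpG -0.37, and those with 3 or more -0.75. The whole array had the same order there, at 0.16, -0.03 and -0.82. The region kept this order on the KO untreated array (-0.09, -0.19 and -0.64) and on the WT decitabine array (0.01, -0.14 and -0.57). On the KO decitabine array alone it was absent, with region medians of -0.04, -0.09 and -0.02. The whole array was nearly flat there too, at 0.01, -0.01 and -0.02. Probes within 500 bases of an annotated start, with a median of 15 CpG in the surrounding 500 bases, had the lowest medians on all 4 arrays, from -0.44 (WT untreated) to -0.13 (KO decitabine).

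**Figure D2:**
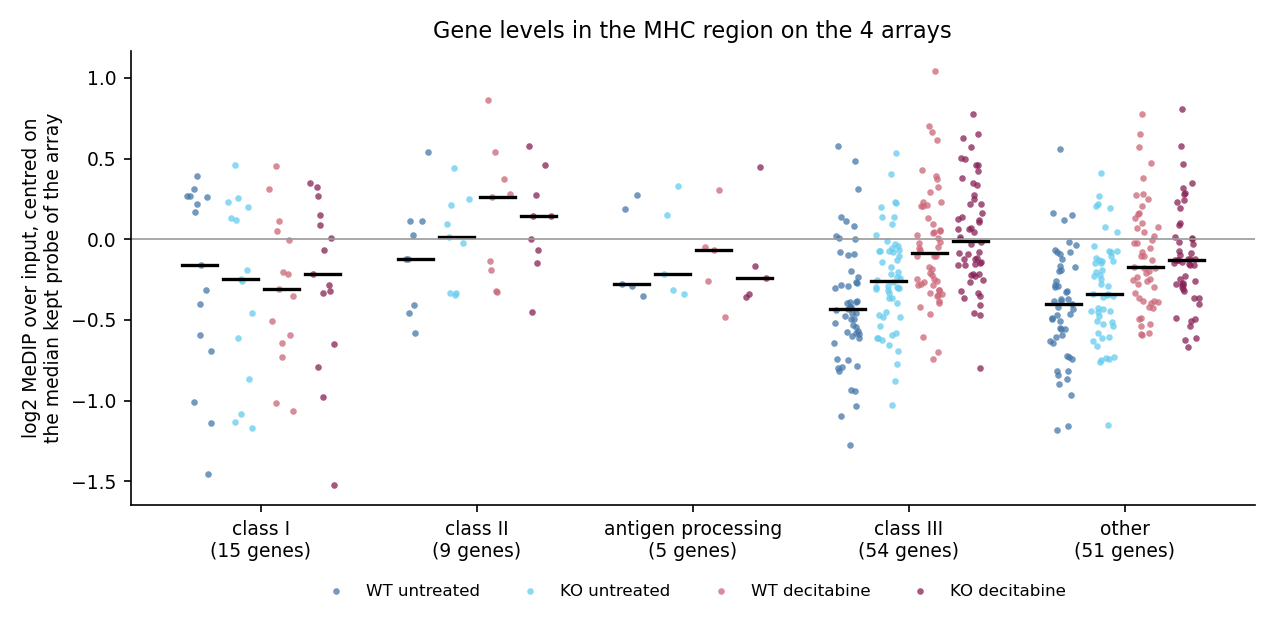
Gene levels (log2 MeDIP over input, 0 at the array's median kept probe) of the genes in each class on the 4 arrays; points are genes and black bars are class medians. Class III medians ran from -0.43 on the WT untreated array to -0.01 on the KO decitabine array, while class I medians lay between -0.31 and -0.16.

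In class I, the heavy chains that bind peptides, 6 of 15 genes had a higher value with decitabine in WT cells and 7 of 15 in KO cells, with median changes of -0.04 and -0.09. Over all 18333 genes of the array 62.7% and 62.1% were higher, with medians of 0.10 and 0.09. A call between 2 arrays required a gene mean at least 2-fold apart and 80% or more of its probes on that side, and no class I gene met it in either genotype. That rule called 0.649% of all genes higher and 0.0927% lower in WT cells, and 0.665% and 0.0491% in KO cells.

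The class I genes with at least 1 measured MeDIP probe on both arrays numbered 4 in WT cells and 5 in KO cells. H2-M11, a non-classical class I gene with 28 kept probes, stood at 0.26 ± 0.84 (untreated WT), 0.20 ± 0.70 (untreated KO), -0.00 ± 0.69 (WT with decitabine) and -0.32 ± 0.77 (KO with decitabine). Its change was -0.26 ± 0.77 in WT cells and -0.52 ± 0.80 in KO cells (SD over probes), so the probes varied by more than the change. H2-T24, another non-classical gene, was above 0 on every array, at 0.22, 0.26, 0.11 and 0.15. H2-T3, which encodes the thymus leukaemia antigen, stood at -0.16, -0.26, -0.21 and -0.07. H2-K1, the only classical class I heavy chain in the fit, read -0.40 with 1 measured probe of 5 on the WT untreated array, -0.73 with 1 on the WT decitabine array and -0.98 with 1 on the KO decitabine array. It had none on the KO untreated array. Of the 4 class I names measured on both WT arrays, all were lower with decitabine there, with changes from -0.33 to -0.05, and 1 of the 5 measured in KO cells, H2-T3, was higher. The direction of H2-T3 in WT cells is not settled: 7 further kept probes carry the name H2-Tw3, which RefSeq gives as a synonym of H2-T3 and which was counted among the other genes. With these probes joined to it, H2-T3 changed by 0.09 in WT cells and by 0.14 in KO cells over 18 probes.

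For H2-Bl no size of the decitabine difference is given. None of its 6 kept probes had measured MeDIP signal on the untreated arrays, 3 had it on the WT decitabine array and 2 on the KO decitabine array. The levels with decitabine were -0.59 in WT cells and 0.01 in KO cells. H2-Q2 had 1 measured probe of 6 on the WT untreated array and none on the other arrays. H2-Q8 had 1 measured probe of 4 on 3 arrays, with levels of -1.17 (KO untreated), -1.07 (WT decitabine) and -1.52 (KO decitabine), and 2 of its probes have a near copy in the region. The genes H2-Q10, H2-M10.1, H2-M10.2 and H2-M10.3 had no measured MeDIP probe on any array. H2-Q1 and H2-M10.4 had measured probes with decitabine only. H2-M1 had 1 on every array but WT untreated, with levels of 0.46 (KO untreated), 0.46 (WT decitabine) and 0.32 (KO decitabine).

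In class II, 7 of 9 genes were higher with decitabine in WT cells and 4 of 9 in KO cells, with median changes of 0.25 and -0.01. H2-DMa, the alpha chain of the chaperone that loads peptides onto class II molecules, had the highest class II change in WT cells. Its 17 kept probes averaged -0.12 ± 1.24 (untreated WT), 0.10 ± 0.78 (untreated KO), 0.86 ± 0.83 (WT with decitabine) and 0.58 ± 0.97 (KO with decitabine). It was higher by 0.99 ± 1.38 in WT cells (1.98-fold, 11 of 17 probes higher) and by 0.48 ± 0.78 in KO cells (1.40-fold, 12 of 17). Measured probes went from 2 on each untreated array to 9 and 7. A run of 7 neighbouring measured probes on the WT decitabine array covered chr17:34273980-34275083, over exons and introns of H2-DMa. The run averaged -0.81 (untreated WT), -0.10 (untreated KO), 1.41 (WT with decitabine) and 0.44 (KO with decitabine), and the run was chosen for its signal on the WT decitabine array.

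The chains of the surface class II molecules had smaller differences. H2-Aa, the I-A alpha chain, read 0.11, -0.03, 0.37 and 0.46 over 25 probes in the array order given above. H2-Ab1, its beta chain, read -0.46, -0.34, -0.19 and -0.45. H2-Eb1, the I-E beta chain, read 0.11, 0.21, 0.26 and 0.15, so that H2-Aa alone of these chains was higher with decitabine by over 0.2 in both genotypes. H2-Ea, named for the I-E alpha chain, was lower with decitabine in both genotypes, at 0.54, 0.25, 0.28 and 0.15. It had the highest class II level without treatment in WT cells. All 33 of its probes, 20 of them kept, lie outside the annotated protein-coding genes. H2-Oa, a chain of the inhibitor of peptide loading, read -0.41, -0.35, -0.32 and -0.15. H2-Ob, its partner chain, had no measured probe on any array. H2-DMb2 had measured probes with decitabine only, at 0.54 in WT cells and 0.28 in KO cells. H2-Eb2 had 1, on the WT decitabine array.

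The antigen-processing genes of the region showed no call in any comparison of 2 arrays. Tap1 and Tap2, which pump peptides into the endoplasmic reticulum for class I loading, changed by 0.22 ± 0.72 and 0.23 ± 0.92 in WT cells and by 0.15 ± 0.79 and -0.14 ± 0.97 in KO cells. Psmb9, an immunoproteasome subunit, was measured on the decitabine arrays only, at 0.31 and 0.45. Of the probes far from its start, 3 at chr17:34319133-34319616 formed a measured run there, at 2.10 and 2.61. Their means without treatment, 1.53 and 1.82, rest on signals not well above background. Psmb8, the neighbouring immunoproteasome subunit, had no measured probe on any array. Tapbp, or tapasin, which bridges class I molecules to the transporter, had 2 measured probes of 31 on each decitabine array, at gene levels of -0.48 and -0.24.

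**Figure D3:**
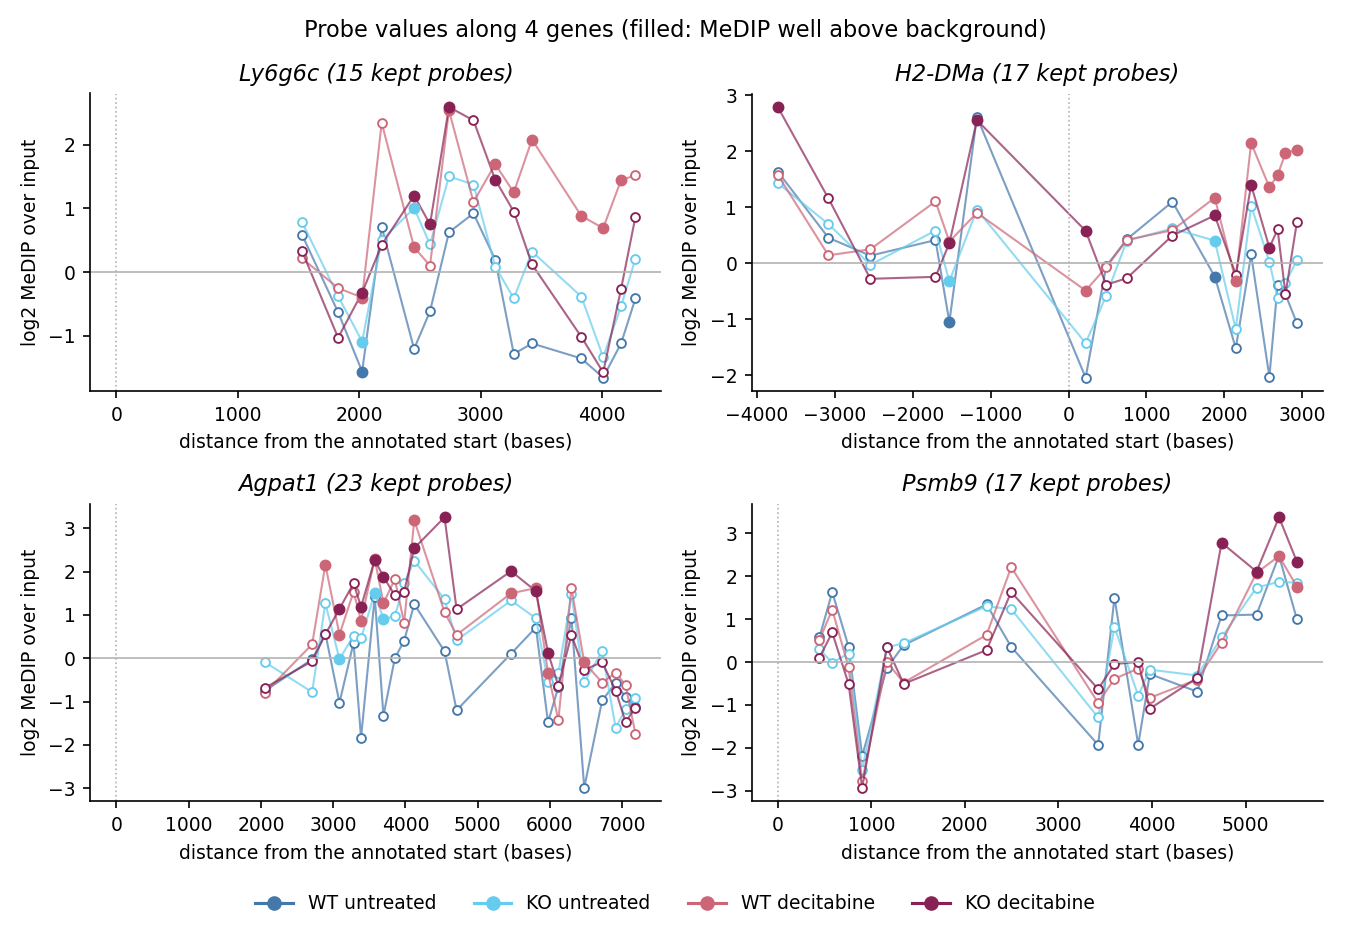
Log2 MeDIP over input of each kept probe along Ly6g6c, H2-DMa, Agpat1 and Psmb9, against distance in bases from the first annotated start of the gene, 1 line per array; filled points are well above background in MeDIP and open points are not. In Ly6g6c 9 of the 15 probes are filled on the WT decitabine array and 5 on the KO decitabine array.

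Most class III genes were higher with decitabine, 47 of 54 in WT cells and 45 of 54 in KO cells, with median changes of 0.36 and 0.28. Counting only genes with measured MeDIP probes on both arrays, 23 of 27 were higher in WT cells (median 0.49) and 24 of 26 in KO cells (median 0.32), against 71.4% and 74.5% of all such genes of the array (medians 0.15 and 0.16). In WT cells 5 region genes were called higher and 0 lower: Ly6g6c, Apom and Agpat1 of class III, and Psors1c2 and Prr3 among the other genes. In KO cells 2 were called higher, Ager and Neu1, and 0 lower. The largest change there, 1.28 ± 1.45 in EG667977, was not called, with 3 of its 4 probes higher. These counts depend on the centring: with arrays centred on their bright probes (well above background in MeDIP and input everywhere), which lowered the median change of all genes in the additive model from 0.10 to -0.50, 1 was higher and 2 lower in WT cells and 0 were higher and 11 lower in KO cells. The shares of all genes were then 0.0927% and 2.11% in WT cells and 0.0273% and 12.8% in KO cells. The directions depend on it too: in the additive model described further on, 49 of 54 class III genes were above 0 in the main setting, 26 after loess within each array and 10 with bright-probe centring, against 64.3%, 33.2% and 4.4% of all genes.

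Ly6g6c encodes a small surface protein of the Ly6 family, held by a lipid anchor. Its 15 kept probes averaged -0.53 ± 0.91 (untreated WT), 0.14 ± 0.84 (untreated KO), 1.04 ± 0.92 (WT with decitabine) and 0.46 ± 1.20 (KO with decitabine). The WT decitabine array was the highest and the WT untreated array the lowest. The change in WT cells was 1.57 ± 0.997 (2.97-fold), with 14 of 15 probes higher and measured probes going from 1 to 9. In KO cells it was 0.32 ± 0.70 (1.25-fold), with 9 of 15 higher and measured probes going from 2 to 5. A run of 6 neighbouring probes, chr17:35205428-35206517 across introns and exons, was chosen for its measured signal on the WT decitabine array and averaged 1.34 there and -0.06 on KO decitabine. A run of 3 chosen on the KO decitabine array, chr17:35204758-35205096, went the other way, with 1.52 there and 1.01 on WT decitabine. The choice of each run favours the array it was chosen on, so neither compares the genotypes. Whether the change differs between genotypes was not tested, since each group is 1 array. The neighbouring Ly6g6d changed by 0.59 ± 1.18 in WT cells, less than Ly6g6c, and by 0.32 ± 1.26 in KO cells. Ly6g6e, measured on both arrays in KO cells only, changed by 0.32 ± 0.70 there. In KO cells the SD over probes exceeded the change in each of the 3 genes.

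Neu1, the lysosomal sialidase, read -0.94 ± 1.03, -0.58 ± 0.89, -0.35 ± 0.63 and 0.42 ± 0.68 over 6 probes, untreated WT and KO first and decitabine WT and KO after. Its change was 0.59 ± 0.91 in WT cells and 1.002 ± 1.02 in KO cells, where measured probes went from 1 to 3. Prr3, a proline-rich protein, went from -0.42 ± 1.02 to 0.65 ± 1.14 in WT cells and from 0.27 ± 0.99 to 0.58 ± 1.22 in KO cells over 24 probes. The change was 1.07 ± 1.03 and 0.31 ± 0.88, so that the gap lay mostly in the untreated levels.

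For Apom, Psors1c2, Agpat1 and Ager no fold is given where they were called, since their MeDIP probes were measured on the decitabine array only. Apom, the apolipoprotein that carries sphingosine phosphate, stood at 0.70 and 0.22 on the WT and KO decitabine arrays with 5 measured probes of 15 on each. Psors1c2 stood at 0.57 and 0.19 with 3 of 11. Ager, the receptor for advanced glycation end products, stood at -0.28 with 4 of 11 and 0.04 with 3. Agpat1, which makes phosphatidic acid, was measured on all but the WT untreated array, with 3 probes of 23 on KO untreated (0.40), 10 on WT decitabine (0.66) and 9 on KO decitabine (0.78). Between the KO arrays, where it was measured on both, Agpat1 was higher by 0.37 ± 0.70 (1.29-fold). Cytokine genes of class III were not called. Tnf and Lta shared a measured run of 3 probes on both decitabine arrays, chr17:35339700-35340275, at 1.53 (WT) and 2.51 (KO), named after its values were seen.

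**Figure D4:**
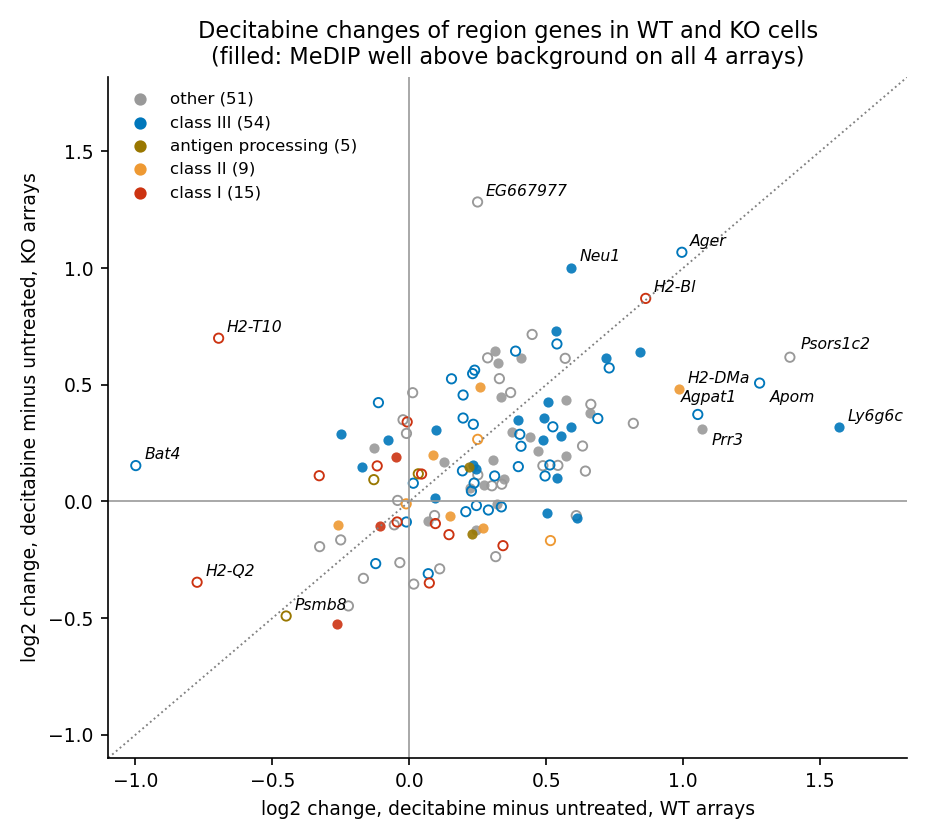
Change in gene level with decitabine in WT arrays (x axis) and KO arrays (y axis), both as log2 differences, for region genes by class; the dotted line is equality, and filled points had measured MeDIP probes on all 4 arrays. Ly6g6c lies far to the right at 1.57 against 0.32. A filled point needs only 1 measured probe on each array, and Ly6g6c had 1 of 15 on the WT untreated array. Filled points thus rest in part on signals near background, as do open points such as Ager and Psors1c2.

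The additive model put genotype and treatment on all 4 arrays and was the only test the design allowed, with 1 residual degree of freedom, which is the interaction. It is limma's moderated test with Benjamini-Hochberg adjustment over 18333 genes. Each SE pools the gene's own gap between its WT and KO changes with those of all genes, and is not a measure of variation between replicates. For decitabine, 33 of 138 region genes rose and 3 fell, against 11.0% and 3.5% of all genes. In class III 16 of 54 rose and 0 fell, and among the other genes 15 of 51 rose and 0 fell. In class I 1 of 15 rose, H2-Bl (adjusted p = 0.00367), and 1 fell, H2-Q2 (adjusted p = 0.0279). In class II 1 of 9 rose, H2-DMa, by 0.73 ± 0.14 (SE, adjusted p = 0.0135), and 0 fell. Of the 5 antigen-processing genes 0 rose and 1 fell, Psmb8 (adjusted p = 0.0313), with no measured probe. The other fall was AK037574, a sequence identifier named because the count is small, which had no measured probe either. At an unadjusted p under 0.05, 63 of the 138 genes passed in either direction (45.7%), against 33.1% of all genes. Among them were 30 of 54 in class III, 25 of 51 other genes, 3 of 15 in class I, 2 of 9 in class II and 1 of 5 antigen-processing genes.

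In class III the rises that passed with measured probes on all 4 arrays included Csnk2b, the regulatory subunit of casein kinase II (0.74 ± 0.12, adjusted p = 0.00784), and Neu1 (0.80 ± 0.14, adjusted p = 0.00862). Pbx2, a homeodomain factor, rose by 0.67 ± 0.12 (adjusted p = 0.0104) and Prrt1 by 0.63 ± 0.12 (adjusted p = 0.0133). Csnk2b and Pbx2 were named after their values were seen. Ly6g6c rose by 0.94 ± 0.23 (adjusted p = 0.0281), and the gap between its changes in WT and KO cells enters that SE. Ly6g6d and Ly6g6e passed at adjusted p = 0.0417 and 0.0482. Ager, Psors1c2, Apom and Agpat1 passed as well, at adjusted p = 0.00239, 0.00862, 0.0126 and 0.0218. Of the chains of surface class II molecules, H2-Aa came nearest, at 0.37 ± 0.13 (adjusted p = 0.0697).

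**Figure D5:**
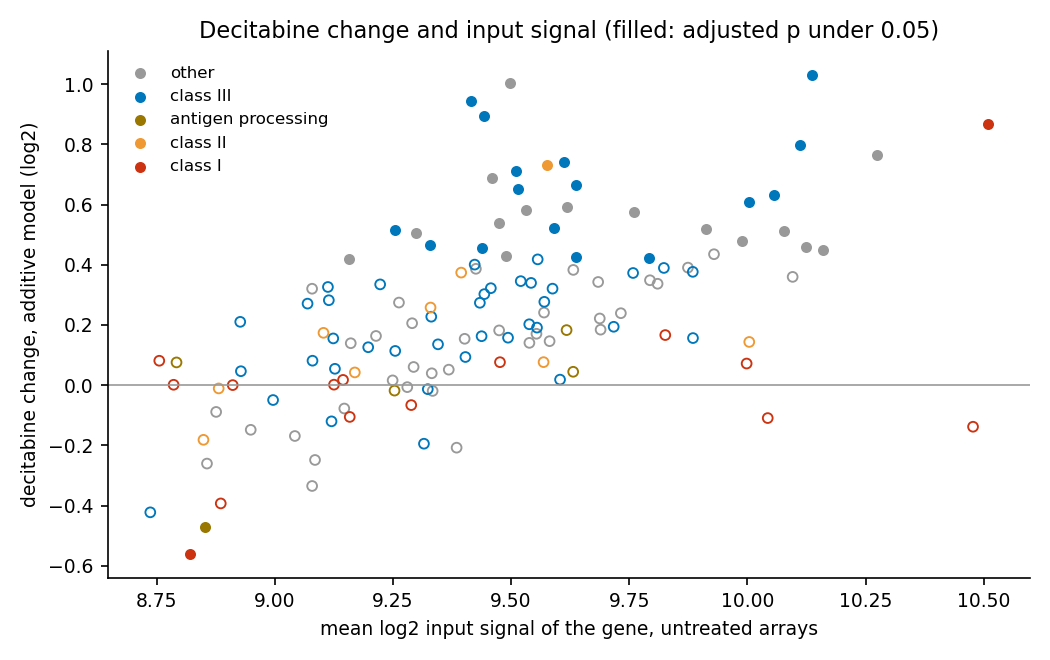
Decitabine change in the additive model (log2) against the mean log2 input signal on the untreated arrays, for region genes by class; filled points have an adjusted p under 0.05 in limma's test. The filled rises sit mostly to the right: 27 of the 33 lie in the brightest input quartile of all genes.

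The input signal moved with these calls. Across the 138 region genes the decitabine change had a Pearson correlation of 0.57 with the untreated input signal, and of 0.70 across all 18333 genes, where the untreated input enters both measures. The region's genes had a median input 0.27 above that of all genes, class III 0.27 above, and class I 0.01 below it. Of the 138 genes 68 lay in the brightest input quartile, where 27 rose (39.7%), against 32.4% of all genes there, and the quartile below it gave 5 of 32 (15.6%) against 7.29%. In the dimmer quartiles 1 of 24 and 0 of 14 region genes rose. After loess against intensity within each array 0 region genes passed limma's test in either direction and 0 genes of the array did, while 24 region genes (17.4%) and 13.5% of all genes had an unadjusted p under 0.05. With arrays centred on bright probes 0 region genes rose and 50 fell (36.2%), against 0.404% and 54.7% of all genes. With the median over probes 13 rose (9.42%) and 1 fell, against 4.11% and 1.63% of all genes. Relative to the median of all genes, which centring cannot move, class III stood 0.22 higher in the main setting, 0.22 without the input filter, 0.15 with normexp and 0.07 with loess. Class I stood at -0.09 in the main setting and -0.15 with loess, but at -0.0067 without the input filter and 0.0014 with normexp, so its place below all genes depends on the processing.

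The genotype comparisons gave fewer calls. Without treatment the KO array was higher than the WT array in 97 of 138 region genes (median 0.13), against 50.6% of all genes, with 0 region genes called higher (0.196% of all genes) and 2 called lower (0.164%), Bat4 and H2-T10. Neither had a measured MeDIP probe on either untreated array, so these calls rest on signals near background and have no measured size. Among genes measured on both arrays the 2 highest were Prr3, higher in KO by 0.68 ± 0.82, and Ly6g6c, by 0.67 ± 0.61. The lowest was Bat3, a chaperone gene, at a difference of -0.61 ± 0.75. With decitabine the KO array was higher in 75 of 138 genes (54.3%, median 0.04), against 48.0% of all genes (median -0.01). Of the region's genes 1 was called higher (0.458% of all genes) and 0 lower (0.104%). The called gene was EG667977, a class I-like gene model now named Gm8909, with 4 kept probes. It stood at 0.81 ± 0.69 in KO and -0.59 ± 0.51 in WT cells, a difference of 1.40 ± 0.86 with 2 and 1 measured probes.

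Neu1 followed at 0.77 ± 0.39 higher in KO with decitabine, then H2-Bl at 0.60 ± 0.57. The difference was -0.58 ± 1.13 for Ly6g6c and -0.49 ± 1.20 for Apom, both lower in KO. In the additive model 4 region genes were higher in KO (2.01% of all genes) and 1 lower (2.11%). EG667977 was higher (adjusted p = 0.0444, with no measured probe on the WT untreated array), and Neu1 was higher by 0.57 ± 0.14 (adjusted p = 0.0497). Zbtb12, a zinc-finger gene, and H2-Bl passed at adjusted p = 0.0254 and 0.0304 with no measured probe on the untreated arrays. AK037574 was the lower one, with no measured probe. The treatment and genotype comparisons share arrays, so their values for a gene are not independent.

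The probes measured on all 4 arrays have MeDIP signals above background, but they are read against the median kept probe of each array. Surrogate values filled 60.8% and 58.9% of the whole array's kept probes on the WT and KO untreated arrays. With decitabine the shares were 38.7% and 37.6%. The changes below thus depend on the centring. Over the 72 in the region the median change with decitabine was 0.58 in WT cells and 0.86 in KO cells, close to 0.61 and 0.80 over the 8687 such probes of the array. They fell into unlike sets, described here without a test because the split used the untreated arrays. The 28 probes above 0 on both untreated arrays had median changes of 0.05 and 0.25, and 27 of them were above 0 on all 4 arrays. The 36 below 0 on both untreated arrays had median changes of 1.19 and 1.16, and all 36 were higher with decitabine in each genotype. On the WT untreated array the input of the first set was 2.43 above the array's median, and that of the second set 4.26 above it.

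Genes of antigen presentation that lie outside the region give a comparison. Of 30 listed genes, among them B2m, the light chain of class I molecules, and Ciita, the class II transactivator, 29 were in the fit. Their median change with decitabine was 0.12 in WT cells and 0.10 in KO cells, close to that of all genes. In the additive model 1 of the 29 rose (3.45%) and 0 fell, against 11.0% and 3.5% of all genes. The gene that rose was Fcgrt, an MHC-related receptor for immunoglobulin G, by 0.56 ± 0.14 (adjusted p = 0.028 in limma's test). B2m (adjusted p = 0.195) and Ciita (adjusted p = 0.682) did not pass, and neither had a measured probe on the KO untreated array.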

How the data were processed

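DNA of 4 samples was measured on 2-colour Agilent arrays, 1 array a group. Per the labels, MeDIP DNA was enriched with a magnetic-bead kit, both it and the input were amplified across the genome, and Cy3 held MeDIP and Cy5 input, with no dye swap. The authors deposited scanner output from Agilent Feature Extraction 10.5 (the submitters' processing notes). Per the file headers the deposited intensity values are linear, background-subtracted and dye-normalized, with surrogates near background. The deposited log10 ratio of Cy5 over Cy3 served as an alternative. The authors' deposited value table is on a log2 scale and equals the turned log10 ratio in 99.9% of its comparable entries. The medians of its columns are 0, 0, 0 and -0.14, uncentred.

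Log2 ratios of MeDIP over input were averaged over spots, filtered and centred on the median kept probe, with no loess or quantile step. Genes were means of at least 3 kept probes. A call between 2 arrays needed a 2-fold change with 80% of probes; no test applies. limma 3.58.1 in R 4.3.3 fitted the additive model at an adjusted p of 0.05, and the script was tested on simulated data. 7 alternatives were listed and 1, centring on all probes, was added after seeing the data. Named genes are all class I, class II and antigen-processing genes, the Ly6g6 genes, Psors1c2, and the 5 largest rises and falls of each comparison. The report gives the size of a change or difference only where a gene had a MeDIP probe well above background on each array it compares, while values in the closing section can lack one; the bounds that could otherwise be computed were all under 1. Members and lists were chosen with earlier results of these data known. Annotation is of mm9, and 18 older names were updated through RefSeq synonyms. A result that met the rules for the text is not reported here.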

Additional observations from a re-analysis of the deposited data

Results flagged for a closer look

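Bat4 and H2-T10 stood out because the KO array was at least 2-fold below the WT array without treatment and above it with decitabine. For Bat4 the difference was -1.05 without treatment and 0.10 with it. For H2-T10 it was -1.0003 and 0.40. No kept probe of either gene, 4 and 6 in number, had measured MeDIP signal on the untreated arrays, so these values compare signals near background and are not measured sizes. The difference between the conditions was not tested, since each group is 1 array.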

How the results depend on the processing

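No paired analysis was possible because each group has 1 array, and leaving an array out leaves no residual degree of freedom. Counts below are of region genes, and a percentage in brackets is the share of all genes called in that setting. Genes higher with decitabine in WT cells (5 in the main setting) numbered 1 with bright-probe centring (0.0927%), 3 with loess (0.164%), 0 with normexp (0.196%) and 2 with the median over probes (0.605%). Genes lower (0) numbered 2 with bright-probe centring (2.11%) and 1 with loess (0.262%). In KO cells genes higher (2) numbered 0 without the input filter (0.549%), 0 with bright-probe centring (0.0273%), 0 with loess (0.0655%), 0 with normexp (0.115%) and 1 with the median over probes (0.764%). Genes lower there (0) numbered 11 with bright-probe centring (12.8%) and 1 with the median over probes (0.0873%). Genes lower in KO without treatment (2) numbered 0 without the filter (0.0898%), with bright-probe centring (0.104%) and with the scanner log ratio (0.164%). The count was 0 with normexp (0.0436%) and all-probe centring (0.0927%), and 1 with loess (0.273%) and the median over probes (0.18%). Genes lower in KO with decitabine (0) numbered 1 with bright-probe centring (0.605%). In the additive model, genes that rose with decitabine (33) numbered 0 with bright-probe centring, 0 with loess, 10 with normexp, 13 with the median over probes and 60 with all-probe centring, of which 0, 0, 10, 11 and 33 were among the 33, and over all genes 2016 became 74, 0, 489, 753 and 5460. Genes that fell (3) numbered 50 (54.7%), 0 (0%), 1 (0.845%) and 1 (1.63%) with the first 4 of these. Genes higher in KO (4) numbered 10 without the filter (7.76%), 1 with bright-probe centring (0.507%), 0 with loess (0.00545%), 2 with normexp (2.62%) and 1 with the median over probes (1.34%). Genes lower (1) numbered 3 without the filter (6.64%). They numbered 0 with bright-probe centring (0.791%), loess (0.0273%), the scanner log ratio (2.01%), normexp (0.704%) and all-probe centring (1.12%). Other counts stayed within 1.5 times, among them all 12 when probes with more than 1 exact match were left out. With bright-probe centring the decitabine change turned in sign for Ly6g6d (-0.14) and Ly6g6e (-0.18), and turned and passed as lower for genes past no threshold in the main setting: B3galt4 (-0.56), Bat3 (-0.58), H2-Ab1 (-0.52), H2-Eb1 (-0.56), H2-M1 (-0.60), H2-M10.1 (-0.60), H2-M10.2 (-0.52), H2-M10.4 (-0.58), H2-Q1 (-0.52), H2-T10 (-0.60), H2-T3 (-0.53), Psmb9 (-0.52) and Tap2 (-0.56). A further 13 named genes already below 0 passed as lower there, among them Angptl4 (-0.77). Several of these genes had no measured MeDIP probe on some or all arrays. With loess it turned for Ly6g6e (-0.0114) and Zbtb12 (-0.0327), and without the filter H2-Eb2 passed at -0.35. Bright-probe centring sets the bright probes, higher with decitabine, to 0 on each array, and lowers every gene; the cause of the other differences was not tested. MeDIP signal over background limits all sizes: 78.2% of kept region probes were near background on every array.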

Other observations

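Measured probes formed runs along the region. A run was 3 or more neighbouring kept probes well above background in MeDIP, with gaps of at most 1000 bases. There were 0 runs on the WT untreated array, 1 on the KO untreated array, 22 on the WT decitabine array and 18 on the KO decitabine array, and the number of measured probes differs between arrays in the same order of treatment. The run on the KO untreated array had 4 probes over Clic1, an intracellular chloride channel gene, at chr17:35193356-35194640. It averaged 0.34 there and -0.28 on WT untreated, and 0.48 and 0.93 on the WT and KO decitabine arrays, where all 4 probes were measured. Ehmt2, a histone methyltransferase gene, held 5 probes at chr17:35046567-35047859, which averaged 1.49 on WT decitabine, the array the run was found on, and 0.70 on KO decitabine. Gtf2h4, a subunit gene of a general transcription factor, held 4 at chr17:35808997-35809889, which averaged 0.90 and 1.22. These runs were named after their values were seen.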
